A study of Mus musculus with 2 samples.

Results

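Kit, Epor and 5 receptor genes used by mast cells and basophils (Il3ra, Csf2rb, Csf2rb2, Il1rl1 and Crlf2) were followed over 2 single-cell RNA libraries of mouse bone marrow. They were chosen by name and are 7 of the 27998 genes in the deposited tables. The Car1-GFP library held CD45+ marrow cells sorted for GFP from naive Car1-GFP reporter mice on a C57BL/6 background, in which GFP reports Car1, a cytosolic carbonic anhydrase gene. The marrow library held cells sorted as CD45+ CD3- Ly6G- from naive C57BL/6 mice that carried no stated transgene. Each library was made from 1 pool of 3 mice, with no treatment named and with ages not given in the sources used here. The tables hold unique molecular identifiers (UMIs), which are counts of captured RNA molecules, and levels are given as CPM, the number of UMIs of a gene per 1000000 UMIs of the same cells. Since each group is a single library, replicate spread is unknown and no test was possible. Intervals are exact 95% Poisson or binomial intervals that cover counting error only, and mice, sort and preparation cannot be told apart from the difference between the gates.

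Kit is the receptor tyrosine kinase for stem cell factor and sustains stem cells, early erythroid progenitors and mast cells. Epor is the erythropoietin receptor, which signals through the kinase Jak2 and the transcription factor Stat5 and on which red cell precursors depend for survival. The other genes encode chains that are shared or paired. Il3ra binds interleukin 3 and pairs with the common beta chain Csf2rb or, in mice, with its interleukin 3-specific relative Csf2rb2. Il1rl1, also called ST2, binds interleukin 33 and pairs with Il1rap. Crlf2 binds thymic stromal lymphopoietin (TSLP) and pairs with Il7r.

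In the GENCODE M21 annotation of GRCm38 (mm10), Kit spans chromosome 5, 75574916 to 75656722, on the plus strand, and Crlf2 spans chromosome 5, 109554709 to 109558993, on the minus strand. Epor spans chromosome 9, 21958897 to 21963506, on the minus strand. Il1rl1 spans chromosome 1, 40429570 to 40465415, on the plus strand. Il3ra spans chromosome 14, 14346275 to 14356011, on the plus strand. The beta chain genes are neighbours on chromosome 15, with Csf2rb2 at 78282507 to 78305721 on the minus strand and Csf2rb at 78325752 to 78353847 on the plus strand. Of the 98-base words in the last 500 bases of Csf2rb transcripts, 4% also occur in Csf2rb2, so a small part of the reads of this pair could be assigned to either gene. None of the words of the other members occurred in another member. Il1rl1 has 5 annotated coding transcripts with ends between 40441407 and 40465415, which encode membrane-bound and soluble forms, and the counts of a gene sum over all of them.

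Promoter sequences are shown for Epor and Il1rl1, the members whose highest levels in the marrow library were in erythroid cells, because GATA factors are active in erythroid cells. They are the 250 bases before each RefSeq start on GRCm38.p6, read 5′ to 3′ on the strand of the gene: Epor at chr9:21963577-21963826 (minus), the upstream Il1rl1 start at chr1:40429320-40429569 (plus) and the downstream Il1rl1 start at chr1:40439379-40439628 (plus). Capitals mark the GATA word AGATAA on either strand, also where its first letter is T, its last letter is G, or both.
Epor: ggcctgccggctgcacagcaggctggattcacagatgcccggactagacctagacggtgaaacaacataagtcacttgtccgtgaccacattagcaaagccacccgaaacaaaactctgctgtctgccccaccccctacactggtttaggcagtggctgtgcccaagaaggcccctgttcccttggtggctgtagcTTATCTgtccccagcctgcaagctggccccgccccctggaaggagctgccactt
Il1rl1 upstream start: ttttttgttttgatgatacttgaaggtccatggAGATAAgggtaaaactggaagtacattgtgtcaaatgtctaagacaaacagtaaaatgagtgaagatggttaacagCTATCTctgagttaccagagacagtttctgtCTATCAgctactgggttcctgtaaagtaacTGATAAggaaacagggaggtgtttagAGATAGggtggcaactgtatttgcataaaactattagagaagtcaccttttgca
Il1rl1 downstream start: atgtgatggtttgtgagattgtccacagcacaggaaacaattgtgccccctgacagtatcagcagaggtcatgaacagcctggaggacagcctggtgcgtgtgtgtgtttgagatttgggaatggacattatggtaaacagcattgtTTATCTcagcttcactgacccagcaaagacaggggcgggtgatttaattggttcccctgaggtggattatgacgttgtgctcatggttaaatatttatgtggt
The Epor promoter held 1 such word, beginning 54 bases before the start, and 2 matches of CACCC, the core letters of the motif of Klf1, an erythroid transcription factor. The upstream Il1rl1 promoter held 5 such words and the downstream one held 1. Among the other members with an entry, the Il3ra and Csf2rb2 promoters also held 1 each, and those of Kit and Crlf2 held 0. Csf2rb2 and Crlf2 promoters held 2 matches of CACCC, and those of Kit, Il3ra and Il1rl1 held 1. At least 1 of the words occurred in 26.5% of 32851 RefSeq promoter windows of the same length, and CACCC in 52.0%. There were 5 or more of the words in 14 windows (0.0426%). That cutoff is the count seen in the upstream Il1rl1 promoter itself, so this share is no test of enrichment. A match is a description of the letters, not of a bound site. The 3′ counts do not show which Il1rl1 start was used.

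The Car1-GFP library had 2400 kept cells with 42795219 UMIs (median 15512.5 UMIs a cell), and the marrow library had 6298 kept cells with 8350799 UMIs (median 1034). Car1-GFP cells were thus far deeper. The limit given for a count of 0 is 3 counts of the total, which lies below the upper end of the exact interval, and it comes to 0.0701 CPM in the Car1-GFP library, against 0.359 CPM in the marrow library. The libraries shared 13 cell barcodes. The neutrophil genes S100a8 and S100a9 took 0.0118% of Car1-GFP UMIs and 11.1% of marrow UMIs, and globin genes took 1.19% of Car1-GFP UMIs and 0.212% of marrow UMIs. Cells were clustered without the 7 receptor genes, and clusters were named from marker genes. Of the Car1-GFP cells, 1715 fell in clusters named erythroid progenitor, 316 in clusters named late erythroid and 369 in 3 clusters that took no name. These last were led by granulocyte genes (151 cells), by Gzmb (120 cells) and by Pf4 (98 cells).

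The first question was in which marrow cell types each receptor gene is read. In the marrow library, Kit was highest in stem and multipotent progenitors, Epor in the erythroid classes, Il1rl1 in late erythroid and basophil/mast cells, Csf2rb and Il3ra in basophil/mast cells, Csf2rb2 in plasmacytoid dendritic and basophil/mast cells, and Crlf2 in conventional dendritic cells. The basophil/mast class held 114 cells and was led by the basophil protease genes Mcpt8 and Prss34. It had no UMIs of the mast cell proteases Mcpt4, Cma1 and Tpsb2, so its levels should not be read as those of mast cells.

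**Figure D1:**
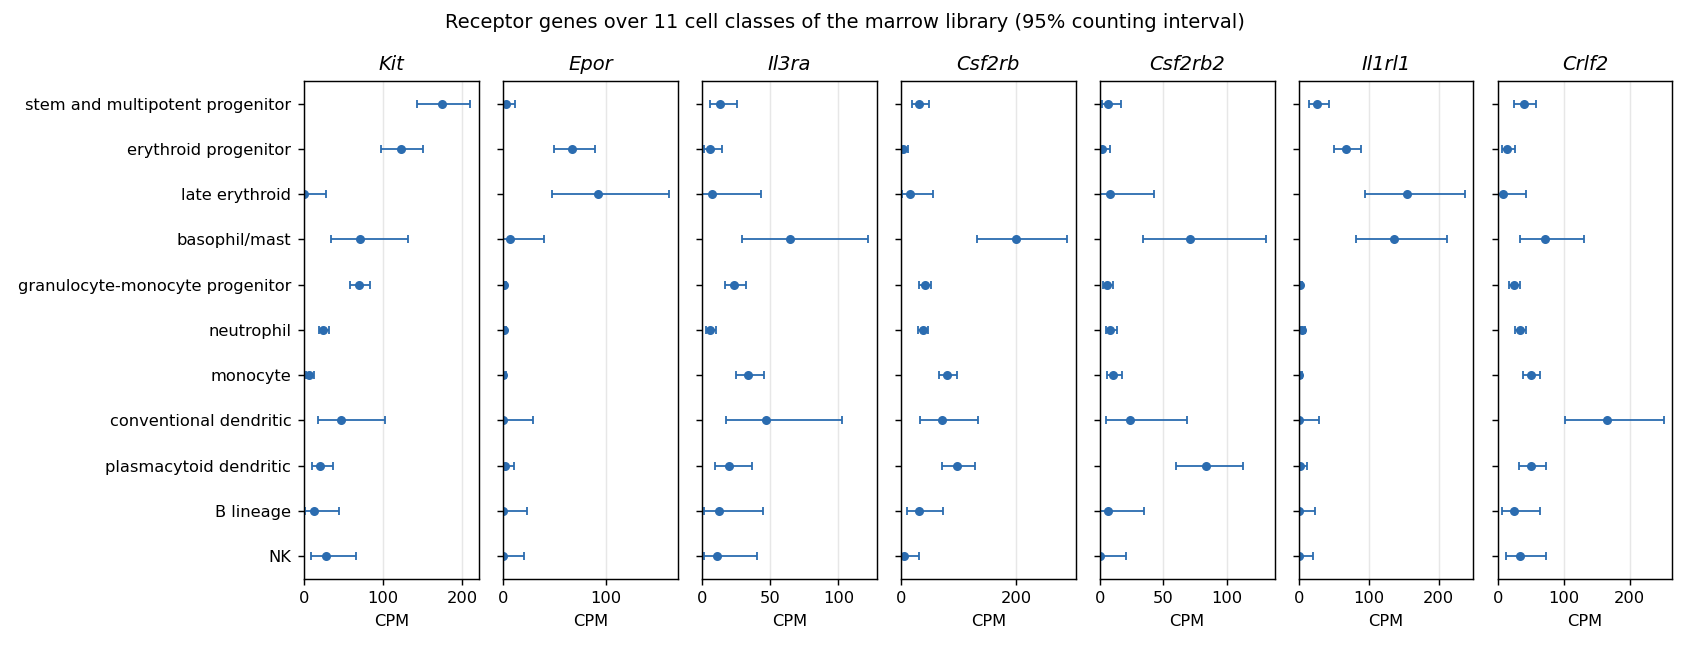
CPM of each receptor gene (x axis, CPM, a separate scale for each gene) in the 11 named classes of the marrow library with at least 50 cells (rows). Points are UMIs summed over the cells of a class, and bars are exact 95% Poisson intervals that cover counting error only. Epor stands above 50 CPM in the erythroid classes alone, at 67.5 and 92.5 CPM, and Csf2rb peaks at 200 CPM in basophil/mast cells.

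Kit was 174 CPM in stem and multipotent progenitors (106 UMIs, interval 143 to 211) and 122 CPM in erythroid progenitors (87 UMIs, 98.05 to 151). The stem class was higher than the erythroid progenitor class by 0.51 on the log2 scale (0.09 to 0.93). The leading genes of this stem cluster also included Pf4 of megakaryocytes and Dntt of lymphoid progenitors. Kit was 71.4 CPM in the basophil/mast class on 10 UMIs and 69.8 CPM in granulocyte-monocyte progenitors on 120 UMIs, and the interval of the difference between these neighbours held 0. Kit was lower in the neutrophil class, at 24.6 CPM, and in monocytes, at 6.78 CPM. The neutrophil class joined several clusters, and its stages were not separated. In late erythroid cells Kit had 0 UMIs in 79 cells, a limit of 23.1 CPM (exact upper end 28.4 CPM). Of the 413 Kit UMIs of the marrow library, 29.1% lay in granulocyte-monocyte progenitors, 25.7% in stem and multipotent progenitors and 21.1% in erythroid progenitors.

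Of the 67 marrow Epor UMIs, 48 lay in erythroid progenitors and 12 in late erythroid cells. Epor was 67.5 CPM in the 194 erythroid progenitors (48 UMIs, 49.8 to 89.5) and 92.5 CPM in the 79 late erythroid cells (12 UMIs, 47.8 to 162), a pair whose difference had an interval that held 0. The next class was basophil/mast with 1 UMI (7.14 CPM, 0.181 to 39.8). The erythroid progenitor class was higher than it by 3.24 on the log2 scale (0.70 to 8.58). Stem and multipotent progenitors had 2 Epor UMIs (3.28 CPM), and 1071 monocytes had 0, which allows up to 2.26 CPM.

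Il1rl1 was high in both erythroid and basophil/mast cells. It was 154 CPM in late erythroid cells (20 UMIs, 94.2 to 238) and 136 CPM in the basophil/mast class (19 UMIs, 81.6 to 212), a difference whose interval held 0. It was 67.5 CPM in erythroid progenitors (48 UMIs, 49.8 to 89.5) and 26.3 CPM in stem and multipotent progenitors (16 UMIs). The steps after the second class were each larger than counting error, from basophil/mast over erythroid progenitor (log2 1.01, 0.16 to 1.80) to stem over neutrophil (log2 2.36, 1.16 to 3.62). Il1rl1 had 1 UMI in 1071 monocytes and 2 in 837 granulocyte-monocyte progenitors.

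Markers of other Il1rl1-bearing cells were read in the same classes. The basophil/mast class had UMIs of 9 of 12 basophil and mast cell markers, which summed to 44029 CPM. The mast cell proteases Mcpt4, Cma1 and Tpsb2 were at 0 there, and the leading genes were Mcpt8 and Prss34, which are basophil proteases. Late erythroid cells had 2 of the 12 markers at a sum of 61.7 CPM, with Ms4a2, Fcer1a and Cpa3 at 0. Erythroid progenitors had 9 of the 12 at a sum of 122 CPM. Of 8 markers of type 2 innate lymphoid cells, another class that uses ST2, late erythroid cells had 1, on 1 UMI. The part of other cells in these Il1rl1 levels was not tested beyond these values.

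The interleukin 3 receptor chains had their highest levels in basophil/mast, dendritic and, for Csf2rb and Il3ra, monocyte cells. Csf2rb was 200 CPM in the basophil/mast class (28 UMIs, 133 to 289), 97.3 CPM in plasmacytoid dendritic cells and 79.9 CPM in monocytes. The first step was larger than counting error (log2 1.04, 0.31 to 1.74) and the second was not. Csf2rb2 was 83.4 CPM in plasmacytoid dendritic cells (42 UMIs, 60.1 to 113) and 71.4 CPM in the basophil/mast class (10 UMIs, 34.2 to 131), and their difference had an interval that held 0. Plasmacytoid dendritic cells held 36.8% of all marrow Csf2rb2 UMIs with 6.03% of the UMIs of the library. Il3ra was 64.2 CPM in the basophil/mast class on 9 UMIs, 47.1 CPM in conventional dendritic cells on 6 and 33.9 CPM in monocytes on 45, and none of these steps exceeded counting error. In erythroid progenitors the 3 chains had 4 (Il3ra), 3 (Csf2rb) and 1 (Csf2rb2) UMIs. At 5.63 CPM for Il3ra, 4.22 CPM for Csf2rb and 1.41 CPM for Csf2rb2, they stood beside 13.1, 31.2 and 6.57 CPM in stem and multipotent progenitors. The counting intervals of the 2 classes did not overlap for Csf2rb and overlapped for Il3ra and Csf2rb2.

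Crlf2 was 165 CPM in conventional dendritic cells (21 UMIs, 102 to 252) and 71.4 CPM in the basophil/mast class (10 UMIs), a step of 1.21 on the log2 scale (0.06 to 2.46). It was 49.7 CPM in monocytes, 49.6 CPM in plasmacytoid dendritic cells and 39.4 CPM in stem and multipotent progenitors, with no step beyond counting error. The erythroid classes were at the low end, with 14.1 CPM in erythroid progenitors (6.75 to 25.9) and 7.71 CPM on 1 UMI in late erythroid cells.

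The genes whose levels over the 11 marrow classes were most like each member were found by Pearson correlation of log2(CPM + 10) among 8801 genes with at least 50 marrow UMIs. For Epor these were Ermap (r = 0.98), Asb17os (r = 0.98) and Klf1 (r = 0.98). For Kit they were Dctd (r = 0.93), Zfp771 (r = 0.90) and Ankrd13a (r = 0.90). For Il1rl1 they were Dnajc6 (r = 0.92), Pdzk1ip1 (r = 0.91) and Usp15 (r = 0.91), of which Dnajc6 peaked in the basophil/mast class and the other two in late erythroid cells. For Csf2rb, Fhod1 (r = 0.93) and Zfp217 (r = 0.93) came first, for Csf2rb2 Aga (r = 0.91), for Il3ra Cebpa (r = 0.91) and for Crlf2 Adrbk2 (r = 0.92). The classes share 1 library and differ in depth, so these values only describe it.

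The second question was how the Car1-GFP gate compares with the broader marrow gate. Epor was 8.70-fold higher in the Car1-GFP library, and Il3ra, Csf2rb and Csf2rb2 were lower by log2 ratios of -3.11 to -6.87, while Kit, Il1rl1 and Crlf2 lay within 2-fold. By 2-fold or more, 1 of the 7 genes was higher and 3 were lower. Of all 12084 genes with at least 20 UMIs, 22.4% were higher and 32.8% lower by the same measure, so a share of 3 in 7 lower is near the background.

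Epor had 2988 UMIs or 69.8 CPM in the Car1-GFP library (67.3 to 72.4) and 67 UMIs or 8.02 CPM in the marrow library (6.22 to 10.2), a log2 ratio of 3.12 (2.77 to 3.49). Kit was 41.0 CPM in the Car1-GFP library, against 49.5 CPM in the marrow library (log2 ratio -0.27, -0.43 to -0.11). This sign depends on the scaling, since the Kit ratio was 0.12 with TMM factors, 0.11 with DESeq2 size factors and 0.17 with every cell weighted equally. Those factors move every log2 ratio up by 0.39 (TMM) and 0.38 (DESeq2). Il1rl1 was 19.3 CPM in the Car1-GFP library, against 14.1 CPM in the marrow library (log2 ratio 0.45). Crlf2 was 26.8 CPM in the Car1-GFP library, against 36.8 CPM in the marrow library (log2 ratio -0.46, and -0.07 with TMM factors).

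Il3ra was 2.27 CPM on 97 UMIs in the Car1-GFP library and 19.5 CPM on 163 UMIs in the marrow library (log2 ratio -3.11, -3.48 to -2.73). Csf2rb had 19 UMIs in 19 cells of the Car1-GFP library (0.444 CPM) and 417 UMIs in the marrow library (49.9 CPM), a log2 ratio of -6.81 (-7.56 to -6.15). Csf2rb2 had 5 UMIs in 5 cells of the Car1-GFP library (0.117 CPM) and 114 UMIs in the marrow library (13.7 CPM), a log2 ratio of -6.87 (-8.52 to -5.60). No Car1-GFP cell had more than 1 UMI of either beta chain. In a library, fewer cells of a type and less RNA per cell cannot be told apart from such sums, and the marrow gate holds the classes in which these chains were read.

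**Figure D2:**
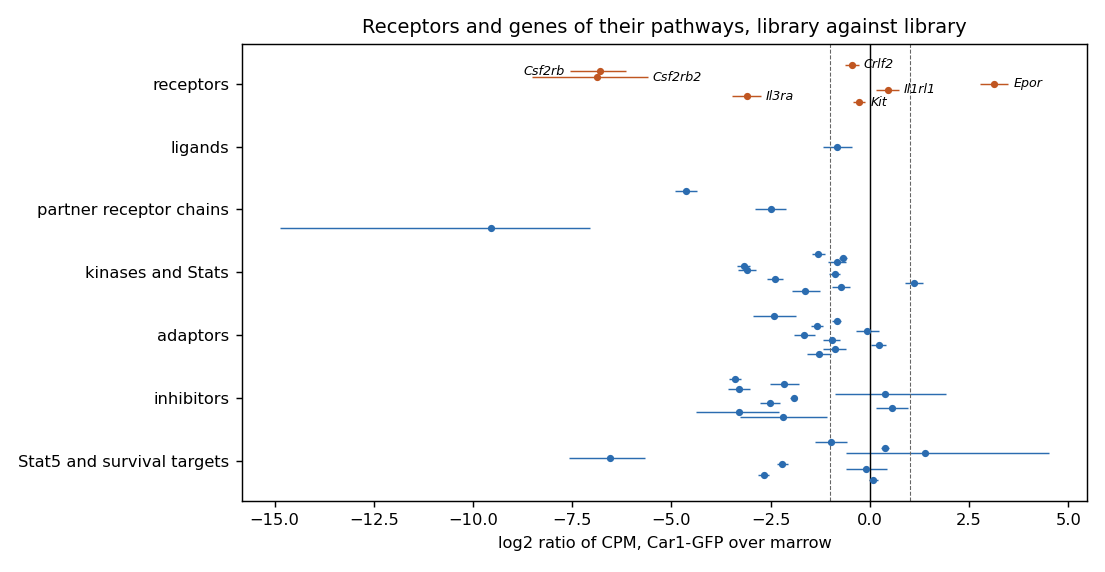
Log2 ratio of CPM, Car1-GFP over marrow (x axis), for the receptor genes (orange, named) and for the measured genes of 6 lists from their pathways (blue), 1 point a gene with its exact 95% counting interval. Dashed lines mark 2-fold. Epor stands at 3.12 and Csf2rb and Csf2rb2 stand at -6.81 and -6.87.

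Genes of the pathways around the receptors were read from fixed lists, whose counts stand beside the 22.4% higher and 32.8% lower of all genes. Several of the counts lie near those shares. Of 4 partner chains, 3 were measured and all 3 were at least 2-fold lower: Csf2ra of the GM-CSF receptor (2.87 CPM in the Car1-GFP library, 71.1 CPM in the marrow library), Il1rap (2.48 CPM in the Car1-GFP library, 14.0 CPM in the marrow library) and Il7r (1 UMI in the Car1-GFP library, 146 in the marrow library). Il1rap and Il7r are the partners of Il1rl1 and Crlf2. Of 10 kinases and Stats, 1 was higher and 5 were lower, with Stat5a at 46.5 CPM in the Car1-GFP library, against 21.7 CPM in the marrow library (log2 1.102) and the Src family kinase Lyn at a log2 ratio of -3.18. The kinase subunit gene Pik3cd stood at -3.10 and Stat3 at -2.39. Jak2, the kinase on the erythropoietin receptor, was within 2-fold (log2 -0.83). Of 9 measured adaptors 0 were higher and 4 lower, which were Gab2 (log2 -2.40), Irak4 (log2 -1.65), Irak1 (log2 -1.34) and Traf6 (log2 -1.27). With TMM factors Irak1 (log2 -0.95), Traf6 (log2 -0.89) and the kinase Akt1 (log2 -0.91) came within 2-fold. Of 9 measured inhibitors 0 were higher and 7 lower, among them the ubiquitin ligase Cbl (log2 -3.40), the inhibitory receptor Cd300a (log2 -3.30), the cytokine signalling suppressor Socs1 (log2 -3.30) and the adaptor Sh2b3 (log2 -2.52). Of 8 measured Stat5 and survival targets, 1 was higher and 3 were lower, with Pim1 at -2.68, Mcl1 at -2.20 and Id1 at -6.55. The higher one was Fam132b, which encodes erythroferrone, at 1.40 on 2 marrow UMIs, with an interval that held 0 (-0.60 to 4.51). The median log2 ratio was -4.63 for the partner chains, -1.09 for the kinases and Stats, -0.96 for the adaptors, -2.18 for the inhibitors and -0.54 for the targets. It was -0.46 for the 7 receptors and -0.23 for all genes.

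Of 7 ligand genes only Tslp had enough UMIs, at 5.70 CPM in the Car1-GFP library (244 UMIs) and 10.1 CPM in the marrow library (84 UMIs). In the marrow library 55 of the Tslp UMIs were in granulocyte-monocyte progenitors (32.0 CPM). Epo, Il3, Il5 and Il33 had 0 UMIs in both libraries.

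The erythroid classes allowed a comparison of cells with the same class name. The names were not scored in the same way, however. Car1-GFP clusters were set against the whole marrow library, and marrow clusters against the other marrow cells. The erythroid progenitors still differed between the libraries. Globin took 0.605% of their UMIs in the Car1-GFP library and 0.217% in the marrow library. Their median depth was 17822 UMIs in the Car1-GFP library and 3239 in the marrow library. Cells of the Car1-GFP clusters that took no name held 0.730% globin, more than the erythroid progenitors of that library. Marrow granulocyte-monocyte progenitors held 0.0162%. How much of the globin RNA came from outside the cells was not tested. Whether the classes held the same mix of stages was not tested either. Among erythroid progenitors, with globin UMIs left out of the denominator, Kit and Il1rl1 were lower in Car1-GFP cells than in marrow cells beyond counting error, while the intervals for Epor, Crlf2 and Il3ra held 0. Of 5 measured receptor genes 0 were higher and 3 were lower by at least 2-fold, against 16.9% higher and 27.1% lower among 10738 genes. Csf2rb and Csf2rb2 were under the limit of 20 UMIs. Csf2rb had 7 UMIs in Car1-GFP cells and 3 in marrow cells, a log2 ratio of -4.31 (-6.44 to -1.73). Csf2rb2 had 3 UMIs in Car1-GFP cells and 1 in marrow cells, with an interval that held 0.

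Kit was 45.3 CPM in Car1-GFP erythroid progenitors (1488 UMIs) and 123 CPM in marrow erythroid progenitors (87 UMIs), a log2 ratio of -1.44 (-1.75 to -1.11). With TMM factors this became -0.97, just inside 2-fold. Il1rl1 was 18.1 CPM in Car1-GFP erythroid progenitors (594 UMIs) and 67.7 CPM in marrow erythroid progenitors (48 UMIs), a log2 ratio of -1.90 (-2.33 to -1.45), and -1.44 with TMM factors. Il3ra had 66 UMIs (2.01 CPM) in Car1-GFP cells and 4 UMIs (5.64 CPM) in marrow cells, with an interval of -2.91 to 0.43. Epor was 71.2 CPM in Car1-GFP erythroid progenitors and 67.7 CPM in marrow erythroid progenitors (log2 ratio 0.07, -0.34 to 0.52). Crlf2 was 25.9 CPM in Car1-GFP erythroid progenitors and 14.1 CPM in marrow erythroid progenitors (log2 ratio 0.88, -0.01 to 1.94), and with TMM factors this ratio became 1.34, beyond 2-fold.

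The late erythroid classes differed between the libraries too. Globin took 4.71% of their UMIs in the Car1-GFP library and 11.3% in the marrow library. Their median depth was 18054 UMIs in the Car1-GFP library and 1397 in the marrow library. Whether they held the same mix of stages was not tested. In late erythroid cells Il1rl1 was also lower in the Car1-GFP library. It was 25.8 CPM in Car1-GFP cells (146 UMIs) and 174 CPM in marrow cells (20 UMIs), a log2 ratio of -2.75 (-3.43 to -2.00), and -2.24 with TMM factors. Among 8209 genes measured in this class, 30.4% were higher and 25.4% lower by 2-fold or more. Epor was 89.5 CPM in Car1-GFP late erythroid cells and 104 CPM in marrow late erythroid cells (log2 ratio -0.22, -1.04 to 0.74). Kit was 10.3 CPM in Car1-GFP late erythroid cells (58 UMIs) and had 0 UMIs in marrow late erythroid cells, whose limit for a count of 0 lies above the Car1-GFP level. Crlf2 was 17.5 CPM in Car1-GFP late erythroid cells and rested on 1 UMI (8.69 CPM) in marrow late erythroid cells.

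**Figure D3:**
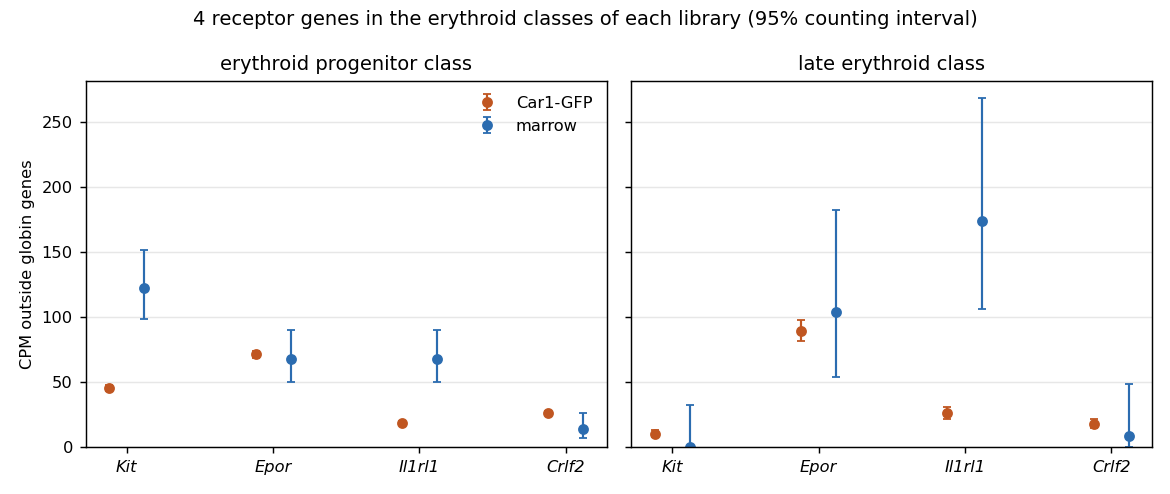
CPM outside globin genes (y axis) of Kit, Epor, Il1rl1 and Crlf2 in the erythroid progenitor class (left) and the late erythroid class (right) of the Car1-GFP library (orange) and the marrow library (blue), with exact 95% Poisson intervals. Il1rl1 in late erythroid cells stands at 25.8 CPM in Car1-GFP cells and at 174 CPM in marrow cells, while the Epor intervals overlap in both classes.

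Detection was also read at a common depth in erythroid progenitors. At 1000 UMIs a cell, averaged over all possible draws, Kit was detected in 4.85% of 1715 Car1-GFP erythroid progenitors and 10.5% of 185 marrow erythroid progenitors. Il1rl1 was detected in 1.95% of the Car1-GFP cells and 6.35% of the marrow cells, Epor in 6.28% of the Car1-GFP cells and 6.39% of the marrow cells, and Crlf2 in 3.02% of the Car1-GFP cells and 1.17% of the marrow cells. Without thinning, Kit was seen in 51.1% of Car1-GFP cells (median 17822 UMIs) and 28.4% of marrow cells (median 3239 UMIs). As a measure of stray RNA, in 1 draw at 1000 UMIs 0.792% of 631 marrow monocytes (median 1112 UMIs before thinning) had a Kit UMI. In 924 marrow neutrophils (median 985) the share was 2.06%, and whether these cells express Kit themselves was not tested. Of either class, 0 cells had an Epor UMI. The Car1-GFP library held no named class that should lack Epor, so no such share was had there, and Kit was in 4.49% of its late erythroid cells at 4000 UMIs over all draws.

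The third question was how the receptors vary along globin share within the Car1-GFP gate. Car1-GFP cells were ranked by the share of their UMIs from 4 globin genes and put in 5 bins of 480 cells. Kit was 3.61-fold lower in the highest bin than in the lowest, Il3ra was 3.82-fold lower, and Epor, Il1rl1 and Crlf2 stayed within 2-fold. Of the 5 receptor genes with at least 20 UMIs, 0 were higher and 2 lower by 2-fold or more, against 5.02% higher and 8.79% lower among 9910 genes.

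The lower 4 bins covered a narrow span of globin share, 0.211% to 0.748%, and the highest bin ran from 0.750% to 54.0%. The pooled cells of the clusters that took no name had 0.730% globin. Whether the order of the lower 4 bins follows erythroid stage was not tested. Median depth was 15928, 18732.5, 14958, 10189 and 16943 UMIs a cell from the lowest to the highest bin. The highest bin held 64.6% late erythroid cells and the lowest 0%, and cells of the unnamed clusters made up 4.58% of the highest and 18.8% of the lowest. Kit was 52.0, 44.9, 48.2 and 46.6 CPM in the first 4 bins and 14.4 CPM in the highest. The highest bin thus stood apart and the lower 4 overlapped, with a log2 ratio of -1.85 for highest over lowest (-2.16 to -1.56). Epor was 69.7, 67.0, 66.6 and 69.0 CPM in the first 4 bins and 81.8 CPM in the highest, a log2 ratio of 0.23 (0.07 to 0.39). Without the clusters not named erythroid, the Epor ratio was 0.16 and its interval held 0.

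Il1rl1 was 17.8, 17.1, 17.3, 21.7 and 24.6 CPM from the lowest to the highest bin, a log2 ratio of 0.47 (0.16 to 0.78). Crlf2 was 29.2, 29.2, 28.4, 28.2 and 19.95 CPM in the same order, a log2 ratio of -0.55 (-0.84 to -0.26). Il3ra was 3.30, 1.94, 2.73, 2.62 and 0.862 CPM, on 7 UMIs in the highest bin and 30 in the lowest (log2 ratio -1.93, -3.37 to -0.72). Csf2rb and Csf2rb2 had 3 and 0 UMIs in the highest bin and 6 and 2 UMIs in the lowest, too few for a ratio. The clusters that took no name, which were more common in the lowest bin, had Il3ra at 6.80 CPM and Crlf2 at 51.5 CPM. Car1-GFP erythroid progenitors had 2.01 and 25.9 CPM, and late erythroid cells 0.885 and 17.5 CPM. The part of this mix in the Il3ra and Crlf2 ratios was not tested.

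**Figure D4:**
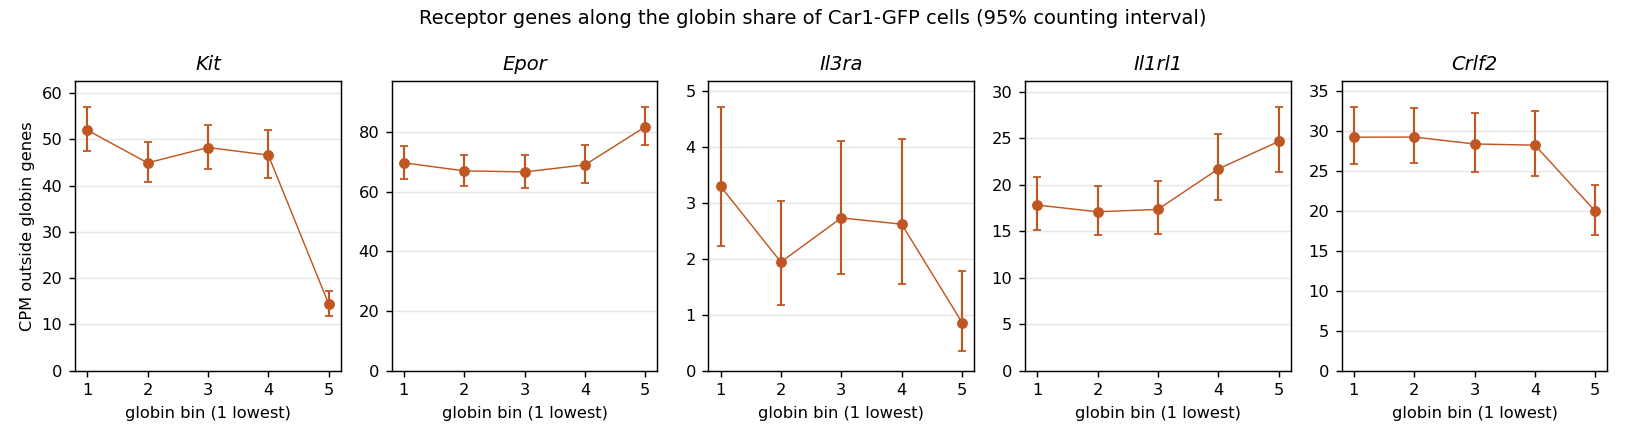
CPM outside globin genes (y axis, a separate scale from 0 for each gene) of 5 receptor genes in 5 bins of Car1-GFP cells ranked by globin share (x axis, 480 cells each, lowest to highest). Bars are exact 95% Poisson intervals. Kit stands at 14.4 CPM in the highest bin, against 44.9 to 52.0 CPM in the others, while Epor stands at 81.8 CPM there.

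Transcription factors read in the same bins set the scale. Gata2, a factor of stem cells and mast cells, was 59.9, 55.1, 66.4 and 77.1 CPM in the first 4 bins and 23.6 CPM in the highest. The log2 ratio of highest over lowest was -1.34 (-1.59 to -1.10), but Gata2 did not fall step by step along the bins. Gata1, the main erythroid GATA factor, was 209 CPM in the highest bin and 178 CPM in the lowest (log2 ratio 0.23), and Klf1 was 462 CPM in the highest bin and 306 CPM in the lowest (log2 ratio 0.60). Counts over the pathway lists stand beside the 5.02% higher and 8.79% lower of all genes. In those lists 1 target was at least 2-fold higher, Tfrc, the transferrin receptor, at 143 CPM in the highest bin and 61.7 CPM in the lowest (log2 1.21), and 1 was lower, the cyclin Ccnd2 (log2 -1.56). Of 9 adaptors 1 was higher, Irak2 of the interleukin 1 receptor family pathway (log2 1.41), and 2 were lower, Grb2 (log2 -1.11) and Gab2 (log2 -1.06). Of 10 kinases and Stats 0 were higher and 2 were lower, Pik3cd (log2 -1.54) and Stat3 (log2 -1.19). The partner chain Csf2ra (log2 -1.11) and the inhibitory receptor Sigirr (log2 -1.02) were the only lower ones of 2 measured partner chains and 6 measured inhibitors, and none was higher.

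With fixed limits of globin share the same levels were read on other cells. Kit was 46.8 CPM in the 2020 cells with 0.3% to 1% globin, 10.3 CPM in the 196 cells with 1% to 3% and 14.8 CPM in the 182 cells with at least 3%. Epor was 68.6, 74.0 and 94.2 CPM in these groups, and Il1rl1 was 18.2, 25.8 and 27.5 CPM. Marrow erythroid cells, put in 3 bins of 91 cells by globin share, had Kit at 179, 64.0 and 6.53 CPM from the lowest to the highest bin. Epor was 45.4, 94.3 and 97.97 CPM and Il1rl1 66.8, 70.7 and 144 CPM in the same order. In Car1-GFP cells Kit was thus lower at 1% globin or more than at 0.3% to 1%, with no further fall at 3% or more. In marrow erythroid cells it was lower in each higher bin, on 1 UMI in the highest.

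The levels also varied between Car1-GFP clusters. Among clusters of at least 50 cells, Kit lay between 8.28 CPM in cluster 7, a late erythroid cluster, and 70.0 CPM in the Gzmb-led cells. The 46 cells of cluster 18 had 109 CPM. This small cluster had a median depth of 6196.5 UMIs, and Xist, mt-Nd3 and Gm42418 were among its leading genes. The quality of its cells was not tested beyond the mitochondrial limit. Within the erythroid progenitor class, Kit was 66.8 CPM in cluster 0 and 61.6 CPM in cluster 1, and 23.96 CPM in cluster 12, where Epor was 105 CPM (94.5 to 117). The 120 cells led by Gzmb had Kit at 70.0 CPM (53.7 to 89.7), Epor at 29.3 CPM (19.2 to 43.0), Crlf2 at 62.1 CPM (46.8 to 80.8) and Il1rl1 at 27.1 CPM (17.4 to 40.3). Il3ra was 9.03 CPM there on 8 UMIs, and Csf2rb 5.64 CPM on 5 of the 19 Csf2rb UMIs of the library. These cells had 8 of 12 basophil and mast cell markers at a sum of 314 CPM, with Mcpt8, Cd200r3, Mcpt4 and Tpsb2 at 0. Gzmb, which led this cluster, is among the 12 markers, so the count and sum are not independent of how the cells were picked. The 98 cells led by Pf4 had Crlf2 at 54.4 CPM and Il3ra at 8.80 CPM, and the 151 cells led by granulocyte genes had Crlf2 at 43.1 CPM. Median depth was 6590 UMIs in the Gzmb-led cells and 33288 in cluster 12.

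The fourth question was whether Kit and Epor were read in the same cell. Thinned to 4000 UMIs, 87 of 2400 Car1-GFP cells had both (3.63%, 2.91% to 4.45%), 309 had Kit alone and 444 had Epor alone. Kit was in 16.5% and Epor in 22.1% of these cells, and the product of the shares is 3.65%. Epor was detected in 22.0% of cells with Kit (18.0% to 26.4%) and in 22.2% of cells without it (20.4% to 24.04%). At this depth Epor detection thus did not differ between cells with and without Kit beyond counting error. The mean over all possible draws was 3.38% for both and 3.54% for the product.

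**Figure D5:**
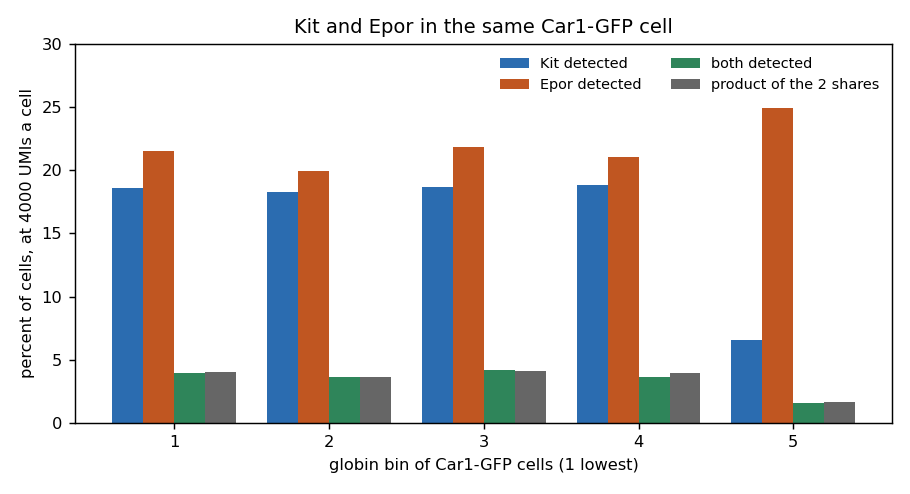
Percent of Car1-GFP cells (y axis, mean over all possible draws of 4000 UMIs a cell) with Kit, with Epor and with both, and the product of the Kit and Epor shares, in each globin bin (x axis, lowest to highest). Cells with both stand at 3.60% to 4.14% in the first 4 bins and at 1.58% in the highest, close to the product in each.

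Along globin share the mean over all draws was 3.93%, 3.60%, 4.14%, 3.65% and 1.58% for cells with both, from the lowest to the highest bin. The products were 4.02%, 3.65%, 4.07%, 3.95% and 1.63%. Kit detection was 18.3% to 18.8% in the first 4 bins and 6.54% in the highest, while Epor detection was 19.9% to 21.9% in the first 4 and 24.96% in the highest. In the erythroid progenitor class both were in 3.84% of cells (product 3.98%), in the late erythroid class in 1.098% (product 1.21%) and in the Gzmb-led cells in 3.66% (product 2.72%).

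Without thinning, 718 of the 2400 cells had both genes (29.9%, 28.1% to 31.8%), with Kit in 45.0% and Epor in 58.7%. This is above the product of 26.4%, in cells whose depth differs. In the marrow library without thinning, 14 of 6298 cells had both, 13 of them among the 194 erythroid progenitors. In that class 28.4% had Kit, 20.1% had Epor and 6.70% had both (3.62% to 11.2%), beside a product of 5.70%. At 1000 UMIs none of 185 marrow erythroid progenitors had both in 1 draw, a limit of 1.62% (exact upper end 1.97%). The mean over all draws was 0.624%, with a product of 0.669%.

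Other pairs in Car1-GFP cells at 4000 UMIs were also near the product of their shares. Over all draws, Kit and Crlf2 were together in 2.39% of cells (product 1.93%), Kit and Il1rl1 in 1.43% (product 1.28%), Epor and Crlf2 in 2.45% (product 2.61%) and Epor and Il1rl1 in 1.77% (product 1.73%). Il1rl1 and Crlf2 were together in 0.984% (product 0.946%). Of the 6 pairs, Kit with Crlf2 lay farthest above its product.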

How the data were processed

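The authors deposited UMI counts per gene and barcode for both libraries. Per the submitters' processing notes, Cell Ranger 2.1 and Seurat 2 were used with mm10, and per the labels' protocols the libraries used 10x Genomics v2 3′ chemistry. The counts were checked to be whole numbers, and no deposited cell annotation was used. Barcodes with at least 500 UMIs and under 10% mitochondrial UMIs were kept, which left out 122 Car1-GFP and 19 marrow barcodes. Scrublet marked 8 Car1-GFP cells (0.333%, under the 0.5% limit, none removed) and 141 marrow cells (2.19%, removed).

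Each library was clustered in scanpy 1.11.5 (Python 3.11.15, leidenalg 0.10.2) without the 7 receptor genes: 2000 variable genes, 30 components, 15 neighbours, Leiden resolution 2, seed 1. Names came from the marker list with the largest average log2 ratio (10 CPM added). Marrow clusters were set against the other marrow cells, and Car1-GFP clusters against the whole marrow library. The Car1-GFP clusters led by granulocyte genes, Gzmb and Pf4 thus also scored highest for the erythroid progenitor list. A name was kept if 3 of its genes reached 2-fold and no rival list led among the 10 top genes. No name rests on a deposited annotation, so class levels depend on these rebuilt names. UMIs were summed per class or library and divided by the total. A gene was measured if the 2 sides together had 20 UMIs, and counts of genes used a size of 2-fold. Cells were thinned without replacement to 4000 UMIs (Car1-GFP) or 1000 UMIs (both libraries), and 3003 shallower marrow cells were left out at 1000. No test was made. A simulated data set with known answers was used to check the scripts. edgeR 4.0.16 (TMM) and DESeq2 1.42.0 gave size factors only. Of the 27998 gene identifiers, 27722 were in GENCODE M21. Promoters come from RefSeq, where 6 of 7 members had an entry.

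The members, lists and comparisons were chosen with earlier results of these data known. In each pathway list, the genes named are up to 4 measured members with the largest absolute ratio. Jak2, Tfrc, Ccnd2 and other genes named beyond them, and the clusters and other gene pairs described, were chosen after their values were seen.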

Additional observations from a re-analysis of the deposited data

How the results depend on the processing

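The counts of receptor genes at least 2-fold higher or lower between the libraries were the same under TMM factors, DESeq2 size factors, every cell weighted equally, a mitochondrial limit of 5%, no doublets removed and cells with at least 1000 UMIs. Over single genes and settings, 28 library ratios stayed within their counting interval and 14 moved outside it. Kit in its highest marrow class, 174 CPM, was 215 CPM with clustering seed 2 and 183 CPM in cells with at least 1000 UMIs, where the highest class was a megakaryocyte one. The Kit log2 ratio along globin, -1.85, was -2.65 with fixed limits of globin share (highest over lowest, which held 2 cells), -1.52 with every cell weighted equally, -2.16 without the clusters not named erythroid and -2.24 in cells with at least 10000 UMIs. The Epor ratio, 0.23, was 0.0188 with those fixed limits and 0.46 for a share of at least 3% over 0.3% to 1%. The share of cells with both genes, 3.63%, was 0.0833% at 1000 UMIs, 29.9% without thinning, 4.54% with random seed 2 and 0% with at least 2 UMIs of each. Detection of both depends on depth and on the UMI limit by construction, and random seed 2 changes only the draw. TMM and DESeq2 factors each add a constant to all log2 ratios between the libraries. For the other moves the cause was not tested. The limit of 10000 UMIs, the 3% contrast and the mean over all draws were chosen after seeing the data.

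No paired analysis was possible because each group has 1 library and no replicate numbers are shared, and leaving out a library would leave no comparison. Depth limits the small marrow classes: in late erythroid and basophil/mast cells 0 to 28 UMIs carry a receptor level.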
